A study of Mus musculus with 4 samples.

Results

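The genes described here encode integrins, ligands of selectins and integrins, and receptors that steer T cells between blood, lymphoid organs and tissue. They were given as a list of 35 gene symbols, and all 35 matched 1 gene each of the 50600 in the count files. The list holds 18 integrin alpha chains, 8 integrin beta chains, the selectin ligand Selplg and the hyaluronan receptor Cd44, the integrin ligands Icam1 and Icam2, the sphingosine 1-phosphate (S1P) receptors S1pr1 and S1pr4 with their antagonist Cd69, and the homing receptors Gpr15 and Gpr183. The rule that defines the list uses no measured value, although the list was drawn up with earlier results of these data known.

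The study sequenced RNA from primary T-helper 17 (Th17) cells of C57BL/6NJ mice, CD4 T cells that secrete interleukin 17. There was 1 group of 4 libraries, numbered as biological replicates 1 to 4, and no treated, untreated or other comparison group. Cells were made by a differentiation protocol that the labels link, and headers of the files mark them as 72 hr and sorted; age and sex were not given. The libraries have separate biosamples but share 1 donor label, and the labels do not tie them to animals or cultures. The sex-linked genes given below differ between replicates 1 and 2 and replicates 3 and 4, so the 4 libraries do not all hold the cells of 1 animal. Whether the libraries within each of these pairs came from separate animals or cultures is not given, and p-values measure the spread between these libraries only.

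An integrin is a pair of 1 alpha and 1 beta chain, and the pairing sets the ligand. The beta2 chain pairs with alphaL to form LFA-1, which binds ICAMs on other leukocytes and endothelium. The beta1 chain pairs with many alpha chains to bind matrix proteins such as laminin and fibronectin, and with alpha4 to bind VCAM-1. The beta7 chain pairs with alpha4 to bind MAdCAM-1 on gut vessels, and with alphaE (CD103) to bind E-cadherin on epithelium. T cells leave lymphoid tissue along S1P, and CD69 holds them back by removing S1PR1 from the surface.

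Total counts ran from 9382661 in replicate 3 to 34542693 in replicate 1, a 3.68-fold range. The sex-linked gene Xist had 177 and 193 TPM (a share of the library's transcripts, corrected for exon length) in the first pair of libraries but 2.15 and 0.598 TPM in replicates 3 and 4. Ddx3y, on the Y chromosome, was at most 0.165 TPM in the first pair and at least 55.2 TPM in the other, and Eif2s3y at most 0.133 and at least 68.9 TPM. All 10 T-cell identity genes and all 12 Th17 genes exceeded 1 TPM throughout, with Cd4 at 564 ± 30.2 TPM and Il17a at 7787 ± 754 TPM (SD, n = 4). The neutrophil and the mast cell and basophil marker lists summed to at most 0.433 and 0.203 TPM in any library, with S100a8, S100a9, Mpo, Csf3r, Camp, Retnlg, Cpa3, Mcpt8, Fcer1a, Ms4a2 and Tpsb2 at 0 counts. Those for gamma-delta T cells and for platelets and erythroid cells summed to at most 0.898 and 1.02 TPM, with Ppbp, Gp1bb, Gp9, Hbb-bs and Treml1 among those at 0 counts. Of the 5 gamma-delta genes only 3 were measured, as Trgc1 and Trgc2 were not matched. The summed level of the macrophage and monocyte list ran from 5.72 to 11.4 TPM, with Cd68 at 6.08, Cd14 at 1.73 and Ccr2 at 0.750 TPM and Fcgr1 at 0 counts. That of the natural killer list ran from 11.7 to 19.3 TPM, with Nkg7 at 8.82, Klrd1 at 3.599 and Klre1 at 1.16 TPM and Ncr1, Klrb1c and Klra8 at 0 counts. Dendritic cell markers summed to 22.3 to 40.8 TPM, with Batf3 at 30.4 TPM and Clec9a, Siglech and H2-Aa at 0 counts. B and plasma cell markers summed to 14.2 to 24.9 TPM, with Ighm at 12.98 and Ebf1 at 6.87 TPM and Ms4a1 at 0 counts. CD8 markers summed to 11.3 to 15.4 TPM, with Cd8b1 at 13.4 TPM and Cd8a at 0.0288 TPM. Stromal, endothelial and epithelial markers summed to 8.10 to 10.2 TPM, with Pecam1 at 8.49 TPM and Col3a1, Cdh5 and Kdr at 0 counts. In such bulk libraries, fewer cells of a type and less RNA per cell cannot be told apart.

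To show what lies before the start sites of genes with contrasting levels, 3 promoters are printed from RefSeq (build GRCm38.p6, the assembly also named mm10). Each is the 250 bases before the start site, 5′ to 3′ on the strand of the gene, in lower case with motif matches in capitals. Itga3 and Itga4 encode alternative partners of the beta1 chain at high and low levels, and Gpr15 encodes a homing receptor of the gut.
Itga3, chr11:95076715-95076964, minus strand: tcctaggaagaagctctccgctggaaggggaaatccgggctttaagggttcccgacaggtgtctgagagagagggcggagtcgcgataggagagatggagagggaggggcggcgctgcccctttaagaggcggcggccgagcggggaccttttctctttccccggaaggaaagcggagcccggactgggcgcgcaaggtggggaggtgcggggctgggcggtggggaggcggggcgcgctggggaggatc
Itga4, chr2:79255176-79255425, plus strand: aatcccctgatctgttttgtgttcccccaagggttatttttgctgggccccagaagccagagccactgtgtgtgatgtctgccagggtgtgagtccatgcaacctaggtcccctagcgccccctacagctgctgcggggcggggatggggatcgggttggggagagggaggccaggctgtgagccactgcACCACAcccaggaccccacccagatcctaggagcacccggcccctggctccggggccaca
Gpr15, chr16:58718873-58719122, minus strand: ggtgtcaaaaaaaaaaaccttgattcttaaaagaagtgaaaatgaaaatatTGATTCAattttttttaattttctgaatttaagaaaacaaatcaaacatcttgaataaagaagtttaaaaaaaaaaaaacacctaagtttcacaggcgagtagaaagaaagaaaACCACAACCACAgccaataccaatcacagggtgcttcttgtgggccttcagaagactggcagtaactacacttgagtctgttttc
Of the 35 genes, 23 had an entry in the promoter table, with 25 start sites. Itga3 had 2, and the one printed is the more 5′. The motifs searched on both strands were TGANTCA for AP-1 factors, TTCNNNGAA for STAT factors, AGGTCA as the ROR half-site and TGTGGT as the RUNX core, and no matches in these genes overlapped. The Gpr15 promoter held 1 AP-1 match, 199 bases before the start, and 2 adjacent RUNX matches on the opposite strand. The Itga4 promoter held 1 RUNX match on the opposite strand, and the Itga3 promoter printed held none of the 4 motifs. It was also rich in G and C, at 67.6%, and so was that of Itga4, at 64%. Gpr15 had 31.6%, and the median over all 32851 start sites was 52.4%. The second Itga3 start had 50.8%. Among all start sites, 6.75% held the AP-1 motif, 7.02% the STAT motif, 14% the ROR half-site and 14% the RUNX core. Among the 25, AP-1 was found in 2 (Gpr15 and Itgax), STAT in 2 (Icam1 and Itga10), RUNX in 3 (Gpr15, Itga4 and the second Itga3 start), and the ROR half-site in 0. A match is a run of letters and not a measured binding site.

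The 35 genes spanned the whole range from no count to the levels of major surface receptors. Of them, 21 (60%) had at least 1 TPM in every library, beside 23% of all 50600 genes and 47.6% of 21764 protein-coding genes. Their median level was 4.93 TPM, and that of protein-coding genes was 0.818 TPM. At the top, 6 genes had over 100 TPM in every library: Itgal, Itgb2, Itgb1, Itga3, Cd44 and Selplg. A further 11 genes lay between 10 and 100 TPM in every library. At the other end, 3 genes crossed 1 TPM in some libraries alone (Itgb3, Itga9 and Itgb8), and 11 stayed below it in every library.

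**Figure D1:**
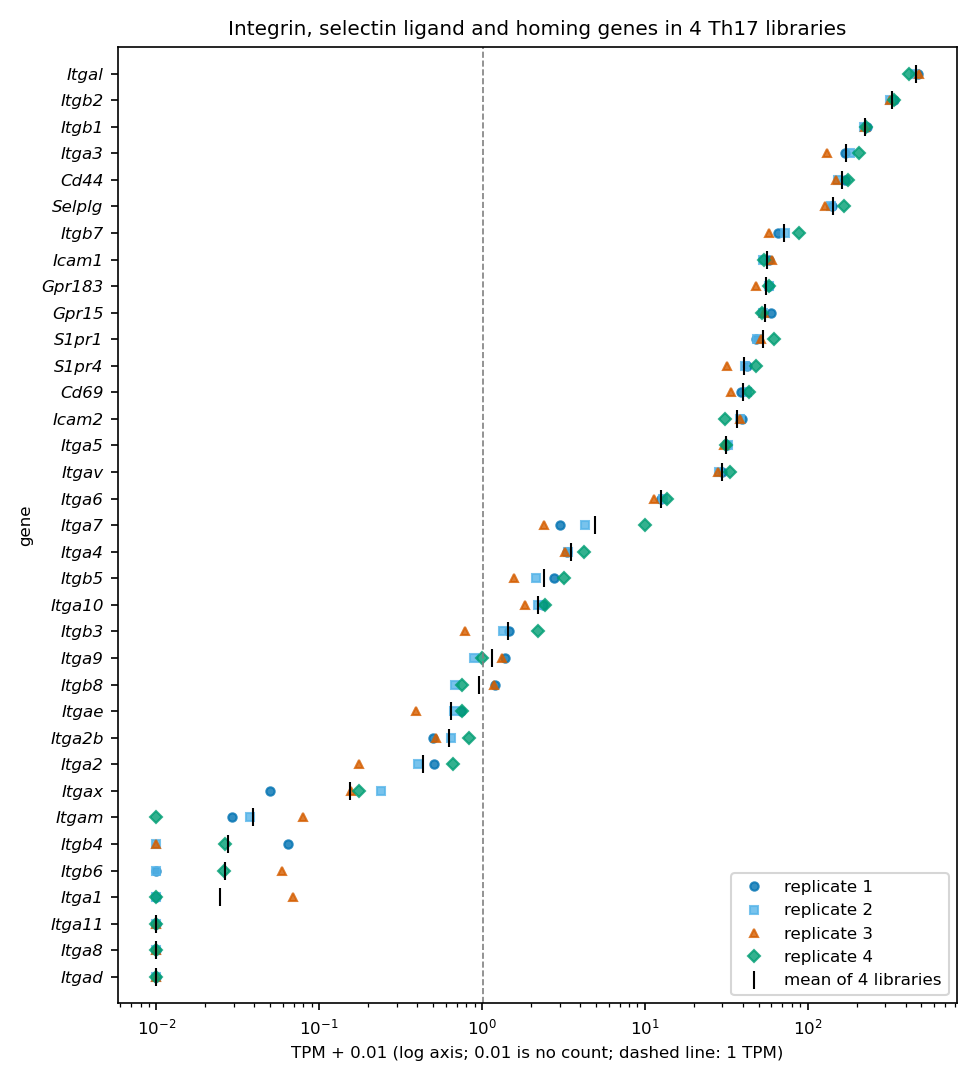
Level of each of the 35 genes in the 4 Th17 libraries, as TPM + 0.01 on a log axis, with genes ordered by mean; symbols are replicates, short bars are means, and 0.01 marks a library with no count. Itgal, at 422 to 483 TPM, is at the top, and Itga8, Itga11 and Itgad have no count in any library.

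Among beta chains, 3 accounted for nearly all transcripts. Itgb2, the beta2 chain of leukocyte integrins, had 337, 322, 321 and 340 TPM in replicates 1 to 4. Itgb1, the common matrix-binding chain, had 230.2, 220.7, 226.0 and 229.1 TPM. Itgb7, the chain of gut-homing integrins, had 66.2, 72.1, 57.6 and 89.0 TPM. The 3 ranges did not overlap. Itgb2 held 52.2% ± 0.768 of the summed TPM of the 8 beta chains, Itgb1 35.8% ± 1.10 and Itgb7 11.2% ± 1.71 (SD, n = 4). Without correction for gene length these shares were 46.8%, 42.9% and 9.04%, so the order held while Itgb2 and Itgb1 came closer.

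The other 5 beta chains were low. Itgb5, which pairs with alphaV to bind vitronectin, had 2.40 ± 0.698 TPM (SD, n = 4). Itgb3, the beta chain of the platelet fibrinogen receptor and of alphaVbeta3, had 1.45, 1.33, 0.773 and 2.20 TPM, lowest in replicate 3 and highest in replicate 4. Itgb8, whose pair with alphaV activates latent TGF-beta, had 1.198, 0.674, 1.17 and 0.743 TPM, with replicates 1 and 3 above replicates 2 and 4. The epithelial chains Itgb4 and Itgb6 held 5 and 2 counts over all 4 libraries.

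Among alpha chains, Itgal took most of the transcripts. It encodes alphaL, the LFA-1 chain that binds ICAM-1, and it had 478, 459, 483 and 422 TPM, the highest level of the 35 genes in every library. It held 63.9% ± 4.81 of the summed TPM of the 18 alpha chains (SD, n = 4), from 57.9% in replicate 4 to 69.5% in replicate 3. The gene (ENSMUSG00000030830.18) lies on chromosome 7 from 127296260 to 127335138 in mm10. Downstream on the same chromosome, between 128062640 and 128223816, lie the genes of the 3 other partners of beta2, and none of them reached 1 TPM in any library. Itgam (alphaM of the macrophage receptor Mac-1) held 3 counts over all libraries, Itgax (alphaX, or CD11c) 19, and Itgad (alphaD) 0. A count of 0 over the 4 libraries allows up to 3 counts, or 0.0227 TPM for Itgad. Itgam is undercounted, since 68.7% of its exonic bases also belong to a second gene model on the same strand, Gm49368, and reads on shared bases were not counted; Gm49368 itself had 0 counts. Of the 8 genes on the macrophage and monocyte list, Cd68 alone had at least 1 TPM in all libraries, at 4.19 to 8.02 TPM, and 5 stayed below 1 TPM in all of them.

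**Figure D2:**
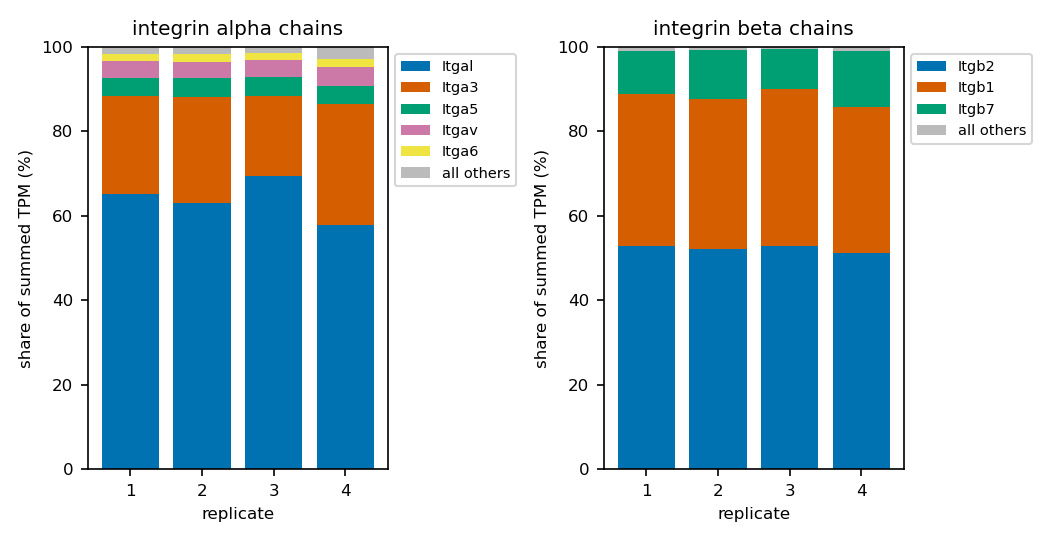
Share of each chain in the summed TPM of the 18 integrin alpha chains (left) and the 8 beta chains (right), in percent, for replicates 1 to 4. Itgal and Itga3 together fill most of the alpha bars, and Itgb2, Itgb1 and Itgb7 nearly all of the beta bars.

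The second alpha chain was Itga3, whose product pairs with beta1 to bind laminin. Itga3 (ENSMUSG00000001507.16, chromosome 11 from 95044474 to 95076801) had 169, 182, 132 and 208 TPM, and 23.9% ± 4.00 of alpha-chain TPM (SD, n = 4). Replicate 3 was the lowest and replicate 4 the highest, 1.58-fold apart. Itga5, the fibronectin receptor chain, was among the steadiest of these genes at 31.8, 32.6, 30.6 and 31.6 TPM. Itgav, the alphaV chain shared by several beta chains, had 29.6, 28.6, 28.2 and 33.2 TPM. Itga6, a second laminin receptor chain, had 12.6, 13.0, 11.3 and 13.6 TPM.

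The alpha chains that pair with beta7 were low. Itga4, which with beta1 forms VLA-4 and with beta7 the gut-homing integrin, had 3.31, 3.37, 3.24 and 4.21 TPM. Replicate 4 was the highest and the other 3 lay between 3.24 and 3.37 TPM. The merged exons of Itga4 cover 13978 bases, the most of the 35 genes, and a level per length is set too low where cells use only part of such a model; its 1471 counts compare with 5926 for Itgb7. Itgae, the alphaE chain of CD103, had 0.728, 0.663, 0.383 and 0.747 TPM, from 92 counts in all. Both chains that pair with beta7 were therefore far below Itgb7 itself in every library.

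Of the remaining alpha chains, Itga7, a laminin receptor chain best known in muscle, varied most in proportion among the genes above 1 TPM in every library. Itga7 had 3.00, 4.27, 2.38 and 10.1 TPM, so that replicate 4 lay above the other libraries, which averaged 3.22 TPM. Itga10, a collagen receptor chain, had 2.21 ± 0.271 TPM, counted from a gene model of which 33.5% is shared with another gene on the same strand (Gm42957). Itga9 had 1.14 ± 0.244 TPM (SD, n = 4). The collagen receptor chain Itga2 and the platelet chain Itga2b had 0.427 ± 0.203 and 0.613 ± 0.149 TPM (SD, n = 4). Itga1, the collagen receptor chain used by many tissue-resident T cells, held 1 count. Itga8 and Itga11, chains of mesenchymal cells, held 0 counts, which allows up to 0.0139 and 0.0199 TPM over the 4 libraries pooled.

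Within each library, partner chains were compared as differences of log2(TPM + 1), a scale that makes differences from low genes too small. In the two-sided exact sign-flip test, 4 libraries allow no p below 0.125, so none of the 15 pairs could reach 0.05. For 14 pairs the sign was the same in all 4 libraries, which gives that smallest p, or 0.134 after Benjamini-Hochberg adjustment (exact test, 15 pairs). Itgal exceeded Itgb2: the difference Itgb2 minus Itgal was -0.48 ± 0.116 (SD, n = 4), and beta2 had 0.719 times the TPM of alphaL. Itgb1 lay below Itgb2 by -0.54 ± 0.0263 and above Itgb7 by 1.67 ± 0.257. Itgb7 exceeded Itga4 by 3.98 ± 0.143 and Itgae by 5.46 ± 0.170, and Itga4 exceeded Itgae by 1.48 ± 0.143. Itgb1 exceeded Itga4 by 5.65 ± 0.132, or 64.8-fold in TPM; on CPM (counts scaled to the library total, with no length correction) that difference was 4.15, and the difference between Itgb7 and Itga4 was 1.91.

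The alphaV chain also exceeded each of its low beta partners. Itgav was above Itgb5 by 3.20 ± 0.226, above Itgb3 by 3.69 ± 0.260 and above Itgb8 by 4.00 ± 0.265 (log2 difference, SD, n = 4, each positive in 4 of 4 libraries). In TPM the ratios were 13.2 ± 3.49 for Itgb5, 23.4 ± 9.22 for Itgb3 and 34.0 ± 11.1 for Itgb8. The chain of highest level known to pair with alphaV was Itgb1.

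**Figure D3:**
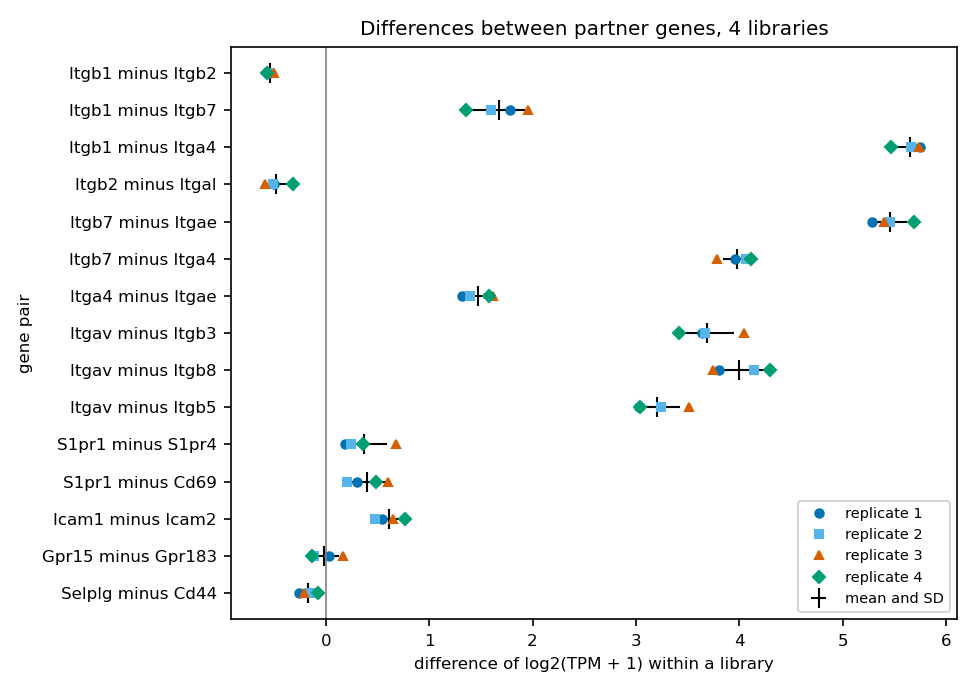
Difference of log2(TPM + 1) between the first and the second gene of 15 pairs, for each replicate (symbols) with the mean and SD (black). Of the 15, 14 lie on 1 side of 0 in every replicate, and Gpr15 minus Gpr183 falls on both sides.

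Genes for rolling and cell contact were high. Cd44, the hyaluronan receptor that also serves as a selectin ligand, had 169, 154, 149 and 176 TPM. Selplg, which encodes PSGL-1, the main selectin ligand of T cells, had 142, 138, 129 and 167 TPM. Both were lowest in replicate 3 and highest in replicate 4. Selplg lay below Cd44 in 4 of 4 libraries, by -0.17 ± 0.0790 on the log2 scale (SD, n = 4), although the ranges of the 2 genes overlap. The LFA-1 ligands themselves were also transcribed. Icam1 had 57.8, 53.5, 60.8 and 53.6 TPM and Icam2 39.4, 38.3, 38.5 and 31.1 TPM, with no overlap and a log2 difference of 0.61 ± 0.128 (SD, n = 4). Icam2 was lowest in replicate 4, against the direction of Cd44 and Selplg.

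Genes of the S1P axis were at like levels. S1pr1, the receptor for exit from lymphoid organs, had 48.3, 49.1, 51.9 and 62.1 TPM. S1pr4, a second lymphocyte S1P receptor, had 42.4, 41.3, 32.1 and 48.0 TPM, and lay below S1pr1 in 4 of 4 libraries. Cd69, an early activation gene whose product removes S1PR1 from the surface, had 39.0, 42.5, 33.9 and 43.9 TPM. S1pr1 exceeded Cd69 by 0.40 ± 0.180 per length on the log2 scale (SD, n = 4). The sign turned without length correction, at -0.68, since the exons of Cd69 cover 6509 bases and those of S1pr1 3046.

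The homing receptors Gpr15 and Gpr183 could not be ordered by TPM. Gpr15, which draws T cells to the large intestine, had 59.3, 53.2, 54.1 and 52.7 TPM. Gpr183 (EBI2), which guides cells along oxysterol gradients, had 57.9, 57.7, 48.2 and 58.0 TPM. Their difference on the log2 scale was -0.01 ± 0.140 (SD, n = 4), with 2 libraries on each side of 0 and an exact sign-flip p of 1 (15 pairs, adjusted p of 1). Without length correction Gpr183 was higher in every library, at -1.17 ± 0.139 for the same difference. The exons of Gpr15 cover 1290 bases and those of Gpr183 2942. In the order of levels by TPM, ranges overlapped between neighbours among Icam1, Gpr183, Gpr15 and S1pr1, and among S1pr4, Cd69, Icam2, Itga5 and Itgav. Genes further apart in such a run could still be separate. Cd69, at 33.9 TPM or more, lay above Itga5, at 32.6 TPM or less. Among the 21 genes with at least 1 TPM in every library, 12 of the 20 neighbouring pairs had overlapping ranges. The ranges did not overlap between Itgal, Itgb2, Itgb1 and Itga3, between Selplg and Itgb7, between S1pr1 and S1pr4, on both sides of Itga6, and between Itga4 and Itgb5.

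Lists of genes that act with these receptors were described by their counts. The list of selectins and selectin-ligand enzymes had 13 of 20 genes at 1 TPM or more in every library. That level was met by 23% of all genes and 47.6% of protein-coding genes. The list had a median of 23.6 ± 0.803 TPM (SD, n = 4). Its highest members were the sialomucin gene Spn at 406 ± 14.9 TPM, Cd24a at 261 ± 13.8, the galactosyltransferase gene B4galt1 at 191 (182 to 214), Glg1 at 101 ± 2.95 and the sulfotransferase gene Chst2 at 71.1 ± 17.8 TPM. The enzymes that build the sialyl Lewis X cap of PSGL-1 were unequal. The fucosyltransferase gene Fut7 had 42.8 ± 4.30 TPM and the sialyltransferase gene St3gal4 59.4 ± 3.19 TPM, whereas Gcnt1, which starts the core 2 branch, had 2.42 to 2.74 TPM. The other fucosyltransferase and sialyltransferase genes of the list, Fut4 and St3gal6, had 2.93 ± 0.414 and 0.818 ± 0.274 TPM. Fut7, St3gal4, Gcnt1, Fut4 and St3gal6 were chosen after their values were seen.

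Genes for integrin activation and adhesion adaptors had 28 of 34 members at 1 TPM or more in every library. The same level was met by 47.6% of protein-coding genes and 23% of all genes. The median of the list was 49.7 ± 2.84 TPM (SD, n = 4). The small GTPase gene Rap1b, a switch for integrin activation, had 1012 ± 48.8 TPM, and the actin regulators Coro1a and Flna 908 ± 38.2 and 554 ± 21.1 TPM. Fermt3, the kindlin of blood cells that binds beta-chain tails, had 440 ± 20.8 TPM, and the adaptor kinase gene Ilk 172 ± 11.4 TPM. Isoforms of other tissues were low in the same libraries. Fermt1 and Fermt2 had at most 0.0484 and 0.609 TPM in any library, the talin gene Tln2 at most 1.75 beside Tln1 at 168 ± 2.56 TPM, and the parvin genes Parva and Parvb 0 and 4 counts beside Parvg at 134 to 147 TPM. These isoforms were chosen after their values were seen.

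For S1P and oxysterol guidance, 19 of 26 measured members had 1 TPM or more in every library, beside 47.6% of protein-coding genes. The median of the list was 32.3 ± 3.71 TPM (SD, n = 4). P2ry8 was not matched. The G-protein genes Gnai2, Gnai3 and Gna13, which couple these receptors to migration, had 485 ± 38.2, 269 ± 8.39 and 203 ± 6.93 TPM, the receptor kinase gene Grk2 284 ± 9.25 and the signal damper Rgs1 169 ± 15.5 TPM. Klf2, a transcription factor known to drive S1pr1 in resting T cells, had 0.361, 0.523, 1.14 and 0.371 TPM, while Foxo1 had 41.9 to 47.05 TPM. S1pr1 was at 48.3 TPM or more in libraries that held 26 Klf2 counts in all. Whether S1pr1 depended on Klf2 in these cells was not tested. The other receptors S1pr2 and S1pr3 had 6.21 to 8.42 and 11.1 to 13.5 TPM, and S1pr5 3 counts. Of this last set, Klf2, Foxo1, S1pr2, S1pr3 and S1pr5 were chosen after their values were seen.

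**Figure D4:**
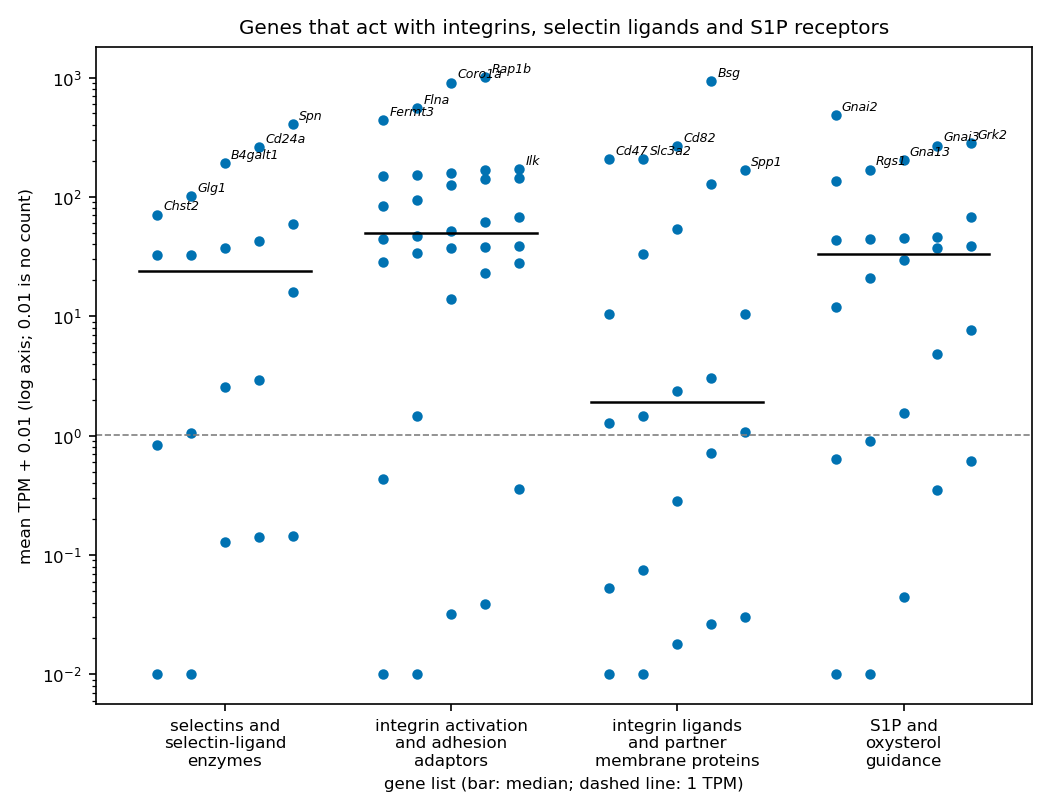
Mean TPM + 0.01 over 4 libraries (log axis) of each gene in 4 lists that act with the receptors, with the median of these means in each list as a black bar, 1 TPM as a dashed line and the 5 highest genes of each list named. Adhesion adaptors have the highest median, near 50 TPM, and integrin ligands and partner proteins the lowest, near 2 TPM.

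The spread between libraries was tested over all genes with edgeR. Each gene's quasi-dispersion was set against the trend for its abundance, with Benjamini-Hochberg adjustment over all genes tested. Of 12156 genes, 1 was called at an adjusted p under 0.05 (0.00823%), Xist, and 596 had an unadjusted p under 0.05 (4.9%). Xist separated replicates 1 and 2 from replicates 3 and 4, as given above. The fit had no term for that split, so the spread includes it. Of the 35 genes, 26 passed the filter on low counts and 0 were called, while 3 had an unadjusted p under 0.05: Itga7, Itga3 and Itgb7. Itga7 had a coefficient of variation (CV) of 70.6% and an edgeR adjusted p of 0.4245. Itga3 had a CV of 17.7% and an edgeR adjusted p of 0.8747. Itgb7 had a CV of 17.95% and an edgeR adjusted p of 0.8781. Itga7 ranked 20th of the 12156 genes. It was called with no filter on low counts (edgeR, adjusted p = 0.000816) and was marked as a dispersion outlier by DESeq2; its adjusted p ran from 0.000816 to 0.824 over the settings run. The other 9 genes, with 0 to 60 counts each, were not tested. With 4 libraries, a gene that was not called is not shown to be steady. Itga7 had a 4.14-fold range in normalised CPM and was not called with the filter. In the pathway lists 0 genes were called by edgeR either, and an unadjusted p under 0.05 was found for 2 of 15 tested selectin genes, 0 of 29 adaptors, 4 of 15 integrin ligands and partners and 2 of 20 guidance genes.

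The least variable of the 26 genes were Itgb1, Itgb2 and Itga5. They had coefficients of variation of 1.64%, 2.23% and 2.36% in normalised CPM, and ranked 11676th, 11140th and 11401st of 12156. The median over the 26 genes was 11.2%, beside 7.91% over all genes tested. For the listed genes tested, the median was 12.8% without replicate 1, 12.9% without replicate 2, 7.75% without replicate 3 and 8.19% without replicate 4. The median over all genes was not computed with a library left out, so these values have no background beside them.

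The spread had a common order of libraries. In normalised CPM, 17 of the 26 genes were highest in replicate 4, beside 33.2% of all genes tested, and 16 were lowest in replicate 3, beside 34.2%. Both held for 14 of 26, beside 20.5% of all genes tested. The 14 were Itga7, Itga3, Itgb7, Selplg, S1pr4, Itgb3, Cd69, Itgb5, Itgav, Cd44, Itga4, Itga6, Itgae and Itga10. Some of these placements were narrow. In replicate 3 Itgav had 93.71 normalised CPM against 93.91 in replicate 2, and Itga4 13.98 against 14.04 in replicate 1. Itgae, Itgb3 and Itgb5 held only 5, 13 and 15 counts in replicate 3. Itgal and Icam1 took the reverse order, highest in replicate 3 and lowest in replicate 4. The median deviation of the 26 genes from their own means was 0.12 in replicate 4 and -0.10 in replicate 3 on the log2 scale, against 0.00132 and -0.000753 over all genes tested. The summed TPM of the dendritic cell and B-cell marker lists took the same order of replicates 3 and 4, as did the T-cell identity list at 5623 and 6116 TPM, while the Th17 list took the reverse order at 24217 and 20448 TPM. The natural killer, CD8 and stromal lists were also highest in replicate 4. Replicate 3 had the fewest counts. The part of these values in the order was not tested; genes are not independent of one another, and 4 libraries of 1 group give no test of the pattern.

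**Figure D5:**
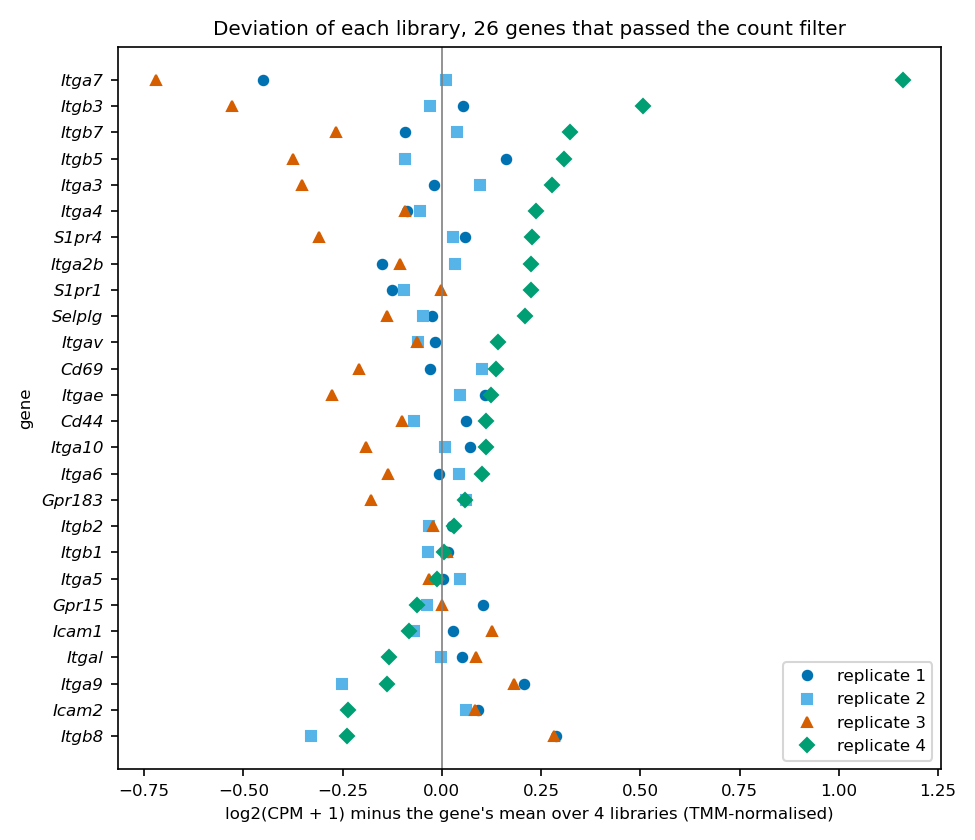
Deviation of each library from the gene's own mean, in log2(CPM + 1) after TMM normalisation, for the 26 genes that passed the count filter, ordered by replicate 4. Replicate 4 (diamonds) lies to the right and replicate 3 (triangles) to the left for most genes, while Itgb8, Icam2, Itga9, Itgal, Icam1, Gpr15 and Itga5 lie below 0 in replicate 4.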

How the data were processed

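RNA was sequenced in 4 libraries of Th17 cells. The deposited files give raw fragment counts for each gene. The authors ran featureCounts 1.4.6-p4 against GENCODE mouse release 13 exons, per the file headers, requiring both mates, with the reverse-stranded setting (2). The same headers set no option to count reads that map to several places or overlap several genes. The build is mm10 per the labels. For the aligner, the version is not stated in these sources. In the labels the assay is total RNA-seq, while a linked protocol is named for poly(A) RNA.

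Symbols came from GENCODE release 21, in which 50376 of 50600 identifiers were found. TPM were computed from the counts and the deposited exonic lengths. Total counts per library ran from 9382661 to 34542693. A count of 0 allows up to 3 counts, which covers counting error only. Differences between libraries exceeded sampling noise (chi-square of 3.33 to 18.5 a gene, over genes with at least 20 counts in the pair) and were kept as 4 replicates.

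Pairs were compared with an exact sign-flip permutation test on log2(TPM + 1). Spread was tested with edgeR 4.0.16 (TMM, filterByExpr, intercept alone, upper tail of the F distribution), tested first on simulated data. DESeq2 1.42.0 was an alternative. Alternatives covered detection thresholds, pseudocount, length correction, normalisation, filters and leaving out each replicate.

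The 35 genes, the lists and the pairs were chosen with earlier results of these data known. By rule, all 35 genes are named, with the 5 highest of each pathway list and, of each marker list, up to 3 of the highest and those at 0 counts. Some genes are not reported here. Other genes named were chosen after their values were seen.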

Additional observations from a re-analysis of the deposited data

Results flagged for a closer look

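Each value below lay far from the other 3 libraries in relation to the range of all 4, a check that chance meets in about 1 of 20 groups; 52 groups were checked and 4 met it. Gpr183 was lowest in replicate 3, at 48.2 TPM against 57.7 to 58.0 TPM. Icam2 was lowest in replicate 4, at 31.1 TPM against 38.3 to 39.4 TPM. Itga4 was highest in replicate 4, at 4.21 TPM against 3.24 to 3.37 TPM. Itga1 had 0.0586 TPM in replicate 3, which is its single count, and 0 in the other libraries. A gene with a single count always meets this check, so the flag for Itga1 was fixed in advance.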

How the results depend on the processing

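No paired analysis was possible because there is 1 group. The number of genes with at least 1 TPM in every library was 21, and ran from 17 (5 TPM) to 24 (0.5 TPM, or 1 CPM without length correction) and from 21 to 22 with each replicate left out. Of 101 alternative values of the pair differences, 98 kept their sign. For the 14 pairs with the same sign in every library, another pseudocount or a library left out could not turn it. The limit to pairs with both genes at 1 TPM or more repeated the main value. The sign of these pairs could therefore turn only without length correction. Without length correction S1pr1 minus Cd69 turned to -0.68. Gpr15 minus Gpr183 ran from -0.0728 (without replicate 3) to 0.0274 (without replicate 4) with a replicate left out, and was 0.02 without replicate 2. On CPM that difference was -1.17, which kept the sign of the main value but not its size. Without length correction the shares of Itgb2, Itgb1 and Itgb7 were 46.8%, 42.9% and 9.04%. Chain shares with a replicate left out moved by less than 1 SD. The number of variable genes over all genes was 1, but 126 with no filter, 5 with a mean count of at least 50 and 111 as DESeq2 dispersion outliers. It ran from 1 to 20 with a replicate left out, the 20 without replicate 4. Of the 35 genes, 1 (Itga7) was called with no filter and 1 (Itga7) by DESeq2, and 0 with any replicate left out. The mean TPM of Itga7 was 4.93, and 3.22 without replicate 4. The order of highest in replicate 4 and lowest in replicate 3 held for 14 genes in normalised CPM, 16 in TPM, 14 with DESeq2 size factors and 13 of the 24 genes with a mean count of at least 50 (alternatives chosen after seeing the data). Levels below 1 TPM rest on at most 302 counts over 4 libraries, so small differences among them were not detectable at this depth.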

Other observations

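Ligands of these integrins and membrane proteins that associate with them formed a further list. Of its 24 genes, 12 reached 1 TPM in all 4 libraries, beside 47.6% of protein-coding genes and 23% of all genes. The median of the list was 2.23 ± 0.371 TPM (SD, n = 4). The highest were partner proteins: Bsg (basigin) at 928 ± 138 TPM, the tetraspanin gene Cd82 at 268 ± 27.3, Slc3a2, the CD98 heavy chain that binds beta-chain tails, at 209 ± 6.56, and Cd47 at 209 ± 12.7 TPM. The fifth was a ligand, Spp1 (osteopontin, bound by alphaV and alpha4 integrins), with 181, 168, 202 and 119.9 TPM in replicates 1 to 4. Replicate 4 was the lowest for Spp1, and its spread did not pass the edgeR test (adjusted p = 0.6770). Ligands of the vessel wall and epithelium were low or unseen: Vcam1 had 1.28, 0.840, 2.77 and 0.219 TPM, Madcam1 1 count and Cdh1 0 counts. The laminin chain gene Lamc1 had 28.4 to 39.5 TPM. Vcam1, Madcam1 and Lamc1 were chosen after their values were seen.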
